A study of Mus musculus with 23 samples.

Results

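MHC class I presentation is covered here by 9 mouse genes, H2-K1, H2-D1, H2-T23, B2m, Tap1, Tap2, Tapbp, Psmb8 and Psmb9, and by the open chromatin around them in striatal microglia. An ATAC-seq peak belonged to them when its summit lay in the body of one of these genes or within 20 kb of it on GRCm38, and it was given to the nearest of them where several qualified. The 23 deposited peak lists held 956 such peaks among 1054137. On regions of 501 bp shared by the libraries, 47 of 49124 regions met the rule: 12 at Tapbp, 10 at B2m, 6 at Psmb9, 5 at H2-K1, 5 at H2-T23, 4 at H2-D1, 3 at Tap2 and 2 at Psmb8. Tap1 had none of its own, since its start lies in the region that holds the start of Psmb9, and it is described there.

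The libraries came from microglia of male mice aged 8 to 10 weeks, sorted from the striatum as live CD11b+, CD45-low and P2RY12+ cells. Control offspring (CON) and offspring from the maternal immune activation arm (MIA) each received an intraperitoneal injection, saline (SAL) or lipopolysaccharide (LPS) at 4500 endotoxin units per gram, 18 hours before the cells were taken. There were 5 CON_SAL, 7 CON_LPS, 6 MIA_SAL and 5 MIA_LPS libraries. The labels name neither the agent given to the dams nor the strain, and they do not say whether each library came from its own mouse. The tests therefore measure how far libraries differ, which may in part be technical. The comparisons ask where LPS, the prenatal history, or both moved the open chromatin at these genes.

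Class I molecules show peptides from inside the cell to CD8+ T cells and, for some members, to natural killer cells. The peptides are cut by the proteasome, whose immune form carries Psmb8 and Psmb9 in place of standard subunits, and are pumped into the endoplasmic reticulum by the transporter of Tap1 and Tap2. Tapbp, or tapasin, bridges the transporter to the heavy chain, which is held by B2m, the invariant light chain. H2-K1 and H2-D1 encode classical heavy chains, and H2-T23 encodes Qa-1, the mouse counterpart of HLA-E. Microglia carry low class I at rest, and interferons and NF-kB signals are known to raise it. In mouse the heavy chains, the transporter, tapasin and both immunoproteasome subunits lie in the MHC on chromosome 17, and B2m lies on chromosome 2.

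Promoter sequences show what the peaks at the starts cover. The table of promoters, from RefSeq on GRCm38.p6, held 8 of the 9 genes, all but Tap2. It gave 2 starts for H2-K1, and the first, at 34000347, was used. That start lies inside the annotated gene range, which ends at 34000619. For each of the following, the bases just before the annotated start are given from 5′ to 3′ on the gene's strand, and capitals mark matches to a motif. H2-K1 and H2-D1 are shown because 90.4% of 228 aligned columns were identical between their full promoter entries, so the pair is nearly 1 sequence. Their annotated starts differ in place within it, and the same 2 motifs stand at −111 and −41 before the start of H2-K1 and at −171 and −101 before that of H2-D1.
H2-K1 (chr17:34000348-34000597, minus strand): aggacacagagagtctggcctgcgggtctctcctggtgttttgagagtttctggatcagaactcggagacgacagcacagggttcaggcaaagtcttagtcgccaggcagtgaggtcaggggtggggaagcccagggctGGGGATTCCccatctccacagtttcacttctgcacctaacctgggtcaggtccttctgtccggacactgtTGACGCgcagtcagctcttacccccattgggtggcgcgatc
H2-D1 (chr17:35262844-35263093, plus strand): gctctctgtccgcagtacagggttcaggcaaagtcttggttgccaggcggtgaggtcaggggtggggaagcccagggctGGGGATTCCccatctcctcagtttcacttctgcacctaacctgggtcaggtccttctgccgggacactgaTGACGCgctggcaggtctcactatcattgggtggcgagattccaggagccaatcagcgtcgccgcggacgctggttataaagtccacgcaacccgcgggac
In both, the first capitals are the match to the NF-kB core (GGGNNTTCC), and the second are the CRE-like TGACGC. B2m and H2-T23 are shown because each holds a match to the IRF core (GAAANNGAA), on the minus strand in H2-T23.
B2m (chr2:122147437-122147686, plus strand): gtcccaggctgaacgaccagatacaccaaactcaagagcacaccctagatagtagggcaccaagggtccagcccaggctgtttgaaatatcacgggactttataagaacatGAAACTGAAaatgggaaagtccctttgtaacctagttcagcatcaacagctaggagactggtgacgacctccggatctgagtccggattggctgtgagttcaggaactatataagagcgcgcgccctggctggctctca
H2-T23 (chr17:36032702-36032951, minus strand): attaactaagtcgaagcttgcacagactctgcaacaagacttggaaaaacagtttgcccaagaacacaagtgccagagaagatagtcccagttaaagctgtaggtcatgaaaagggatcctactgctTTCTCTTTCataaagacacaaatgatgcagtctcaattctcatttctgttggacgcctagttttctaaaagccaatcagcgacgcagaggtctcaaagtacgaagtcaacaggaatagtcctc
The match ran from −139 in B2m and from −123 in H2-T23. Psmb8 held a match to the GAS motif (TTCNNNGAA) from −97, and the 225 bases that separate the starts of Psmb9 and Tap1, which run in opposite directions, are shown as the shared promoter of these genes.
Psmb8 (chr17:34197945-34198194, plus strand): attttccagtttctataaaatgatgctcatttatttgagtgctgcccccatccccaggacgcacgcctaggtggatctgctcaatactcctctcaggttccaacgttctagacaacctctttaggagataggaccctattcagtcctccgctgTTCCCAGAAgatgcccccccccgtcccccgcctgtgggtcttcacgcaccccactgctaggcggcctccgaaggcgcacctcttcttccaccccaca
Psmb9 to Tap1 (chr17:34187331-34187555, plus strand): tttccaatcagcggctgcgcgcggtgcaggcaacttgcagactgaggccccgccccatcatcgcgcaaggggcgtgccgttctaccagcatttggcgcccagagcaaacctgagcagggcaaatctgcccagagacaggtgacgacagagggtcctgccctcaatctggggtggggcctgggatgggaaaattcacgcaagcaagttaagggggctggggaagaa
No match to the searched motifs fell in the stretch from Psmb9 to Tap1 or in the 250 bases before the start of Tapbp. The search covered both strands. Among the first promoter entries of 17492 protein-coding genes, 6.93% held the IRF core, 5.31% the NF-kB core, 6.69% GAS, 7.37% the CRE-like motif, 6.22% AP-1 (TGANTCA) and 9.98% the PU.1 core (GAGGAAG) in the same 250 bases. Such a match describes the letters only. Each motif was searched at a fixed length, so a site of another spacing would not be marked. A stretch without capitals is therefore not shown to lack a site. H2-K1 and H2-D1 reads can map to either gene or to other near-identical class I copies, and no source here states the mapping filter, so peaks at these genes are uncertain in that respect.

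The libraries as a whole set the frame for these values. The lists held 33949 to 68312 peaks, and every list was shortened to its best 33949 by −log10 p before the comparison. The members had 37 to 45 deposited peaks per CON_SAL library and 35 to 48 per CON_LPS library. MIA_SAL libraries had 27 to 49 and MIA_LPS libraries 35 to 49. The label of microglia was checked against marker genes: 7 or 8 of 9 microglia markers had an open region in each library, with Gpr34 open in none, against 0 or 1 of 5 border-associated macrophage, 0 or 1 of 6 monocyte and neutrophil and 0 or 1 of 6 lymphocyte markers. Neurons gave 0 or 1 of 6, astrocytes 0 to 2 of 4, oligodendrocytes 1 or 2 of 4 and endothelium 1 or 2 of 4. Mrc1 and Lyve1 of border-associated macrophages, Ccr2, Ly6c2 and S100a9 of monocytes and neutrophils, and Cd3e of lymphocytes had no open region in any library. On the second principal component of all regions, with 9.8% of the variance, the 6 libraries with identity numbers 01 to 03 in the labels ran from −9.82 to −2.77 and the other 17 from −2.87 to 6.66. These 6 are spread over all groups, with 1 CON_SAL, 2 CON_LPS, 2 MIA_SAL and 1 MIA_LPS library, and calls that change without them are given both ways. The labels put 14 such numbers on the 23 libraries, 8 of them on more than 1 library (17 libraries in all) and none on both CON and MIA, and do not say what a number marks. Libraries that share one may therefore not be independent. With the number as a random block in limma (an alternative chosen after seeing the data, correlation 0.132), all 5 averaged, 3 CON and 3 MIA calls described here were kept.

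Of the 47 regions, 17 (36.2%) had a peak in all 23 libraries, against 33.8% of all regions. They were 4 at Tapbp, 3 at H2-K1, 3 at B2m, 2 at H2-D1, 2 at Psmb8 and 1 each at H2-T23, Tap2 and Psmb9. In 28 of them another protein-coding gene lay nearer than the member, and 21 lay within 1 kb of the end of a protein-coding gene. All 10 regions of B2m lie inside the annotated range of Patl2, and those upstream and downstream of Tapbp lie nearer to Daxx, Zbtb22, Rgl2, Pfdn6 or Wdr46. A region near a member is therefore not shown to act on it. In bulk sorted cells, fewer cells with an open region and less access per cell cannot be told apart.

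Levels are given as a rank percentile. Within a library the best peak by −log10 p is at 100 and the last of the shortened list near 0. A region with no peak in that list is at 0. Throughout, no peak means none in the shortened list, and a weaker deposited peak may lie there. The authors' fold enrichment at the summit is given beside it where it helps. The 8 regions that hold a start differed widely in level. H2-K1 (chr17:34000090-34000590) was highest, with a median over the 23 libraries of 93.7 and a range from 89.8 to 96.6, and its fold ran from 8.61 to 20.4. The shared start of Psmb9 and Tap1 (chr17:34187187-34187687) followed at 89.6 (80.5 to 96.8), then H2-D1 (chr17:35262766-35263266) at 88.4 (80.9 to 96.8) and B2m (chr2:122147389-122147889) at 85.4 (66.9 to 92.5). The light chain, both classical heavy chains and the transporter and proteasome pair thus had starts that ranked high among the peaks of these cells. Gene starts as a class are often open. Of the 8516 regions at a protein-coding start, 79.1% had a peak in all 23 libraries, against 75.0% of the 8 member starts. Neighbours in the order of medians overlapped across libraries, so their ranges gave no clear rank between neighbours. Within each of the 23 libraries, though, the H2-K1 start stood above the B2m start.

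Psmb8, Tap2, Tapbp and H2-T23 stood lower. Psmb8 (chr17:34198086-34198586) had a median of 76.4 (62.4 to 87.7). The Tap2 value is for the region (chr17:34204249-34204749) at the lower coordinate of the gene, taken as its start since the table gives no strand for it, with a median of 62.7, no peak in 1 library and up to 77.3 in the others. Tapbp (chr17:33919333-33919833) stood at 62.2 (39.2 to 76.4) with a weak fold of 3.12 to 7.47. H2-T23 (chr17:36032477-36032977) was lowest, with a median of 37.1, no peak in the shortened lists of 2 libraries and up to 65.2. Of these 2, MIA_LPS replicate 1 read 11.7 when ranked by fold, so it held a deposited peak there. Summits sat close to the annotated starts, a median of 5 bp after it at H2-K1, 30 bp before it at B2m, 11 bp before it at H2-T23, 79 bp before it at H2-D1 and 141 bp after it at Psmb8.

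**Figure D1:**
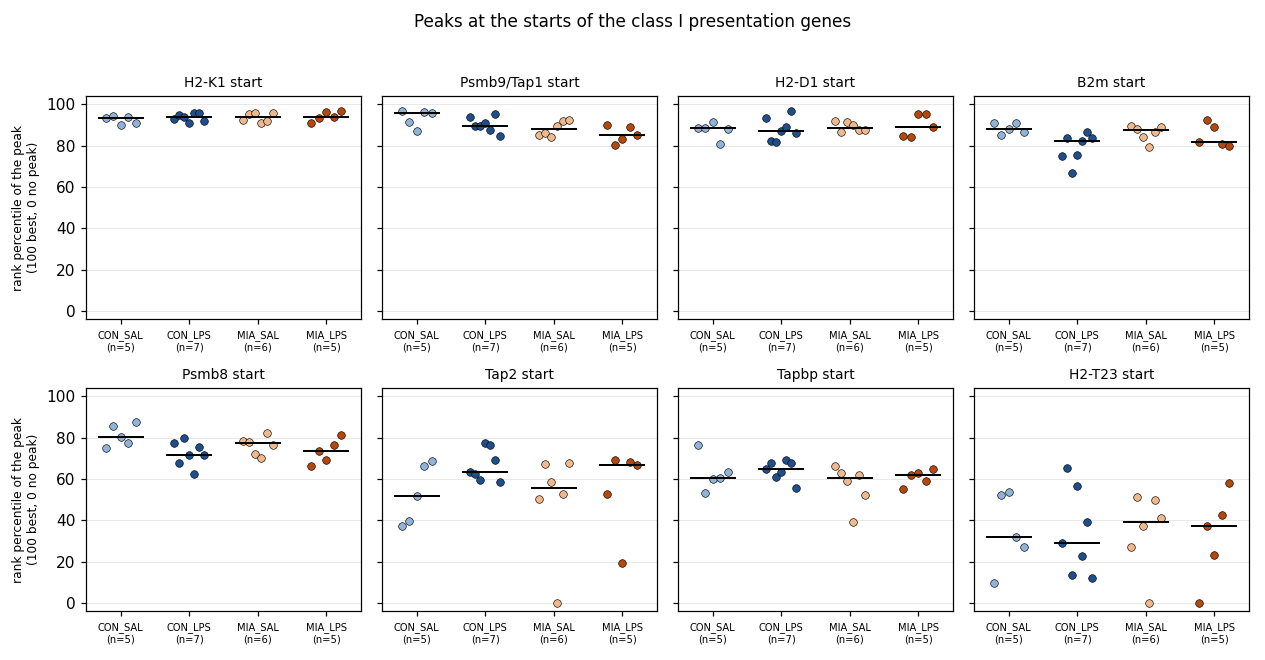
Rank percentile of the peak in each library (points) at the 8 regions that hold the start of a member gene, by group. The vertical axis has 100 for the best peak and 0 for none in the shortened list. Lines are group medians. H2-K1 stays between 89.8 and 96.6 in all 23 libraries, and H2-T23 spreads from 0 to 65.2 within and across groups.

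LPS did not move any of these starts past the threshold when averaged over CON and MIA offspring: 0 of 8 were called by limma at an adjusted p under 0.05, where 10.3% of the 8516 regions at a protein-coding start were called. Their median absolute difference was 2.82 points, against 2.12 at all such starts. The H2-K1 start, the highest of the 8 by median, read 93.4, 94.6, 89.8, 93.7 and 91.1 in CON_SAL and 91.1, 93.4, 96.1, 94.1 and 96.6 in MIA_LPS. In CON_LPS its lowest, median and highest values were 91.2, 93.9 and 96.0, and in MIA_SAL 90.9, 93.7 and 95.8. All groups overlapped, and the LPS difference was 0.95 points (SE 0.911, limma adjusted p = 0.500). H2-D1 differed by 0.54 (SE 1.78, limma adjusted p = 0.867), Tapbp by 2.66 (SE 3.32, limma adjusted p = 0.618) and H2-T23 by −1.56 (SE 8.33, limma adjusted p = 0.922). The wide error at H2-T23 leaves room for a difference that these libraries could not show.

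B2m and Psmb8 came nearest to a difference at a start. At B2m the values were 90.8, 85.4, 87.9, 91.2 and 86.8 in CON_SAL and 81.8, 92.5, 89.1, 80.8 and 80.0 in MIA_LPS, with 66.9, 82.1 and 86.4 (lowest, median, highest) in CON_LPS and 79.2, 87.6 and 89.4 in MIA_SAL. CON_LPS libraries lay mostly below CON_SAL, with 1 of 7 above the lowest of them, while both MIA groups overlapped. Averaged over the offspring groups the B2m start was 5.37 points lower after LPS (−5.37, SE 2.07, limma adjusted p = 0.0683), which missed the threshold. In CON offspring alone it fell by 9.38 (SE 2.88, limma adjusted p = 0.0376), and in MIA offspring it differed by −1.37 (SE 2.98, limma adjusted p = 0.842). The difference of these responses was 8.02 (SE 4.15, limma adjusted p = 0.972), so the responses were not shown to differ. Within libraries of under and over 20000 sorted cells (13 and 10 libraries) the averaged difference was −2.37 and −7.86. The CON call was lost without any 1 of CON_SAL replicates 1, 3, 4 and 5 or CON_LPS replicates 1, 3 and 4 (limma adjusted p of 0.0577 to 0.0933), and without the 6 libraries of identity numbers 01 to 03 (0.0803), where the averaged fall of 6.37 was called (limma adjusted p = 0.0348). The averaged difference also passed without CON_LPS replicate 6, MIA_SAL replicate 4 or MIA_LPS replicate 2 (limma adjusted p = 0.0397, 0.0382 and 0.0317), and with the replicate number as a block (0.0486).

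Psmb8 read 74.9, 85.8, 80.3, 77.7 and 87.7 in CON_SAL and 66.4, 73.5, 69.0, 76.7 and 81.2 in MIA_LPS, with a median of 71.9 (62.4 to 79.9) in CON_LPS and of 77.3 (70.1 to 82.1) in MIA_SAL. The groups overlapped, and the averaged difference of −5.83 (SE 2.32) missed the threshold (limma adjusted p = 0.0779). Leaving out CON_LPS replicate 3 or MIA_LPS replicate 5 brought it under the threshold (0.0487 and 0.0432). None of the 11 other settings did, and with all deposited peaks the difference was −3.99 (limma adjusted p = 0.361). The shared start of Psmb9 and Tap1 differed by −2.99 (SE 1.54, limma adjusted p = 0.180) and Tap2 by 9.93 (SE 7.07, limma adjusted p = 0.343).

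Away from the starts, 5 of the remaining 39 regions differed with LPS, 3 higher and 2 lower. As a share of all 47 regions this is 10.6%, below the background of 20.6% over all regions (10.8% higher and 9.77% lower), so class I loci did not stand out for the number of LPS calls. With peaks of −log10 q of at least 5 alone, 0 were called higher and 2 lower, and the gains at B2m, H2-T23 and Tapbp were 17.1, 1.02 and 49.2 points (limma adjusted p = 0.0693, 0.528 and 0.0865). Over the 47 regions the median difference was −0.75 points, and over all regions −0.60. The 34 regions with neither a start nor a call differed by −14.1 (1365 bp downstream of Psmb9, limma adjusted p = 0.159) to 18.1 (11677 bp downstream of Tapbp, limma adjusted p = 0.22), 20 of them below 0 and 14 above. The presence of a peak was compared too, by an exact conditional test over both offspring groups, in regions where enough libraries differed for a p of 0.01 to be possible. It called 3 of 14 members tested (21.4%), where the background was 23.6% of 17568 regions (15.3% with a peak in more LPS libraries and 8.38% in fewer).

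A gain with no peak in any saline library lay 6200 bp downstream of H2-T23, at chr17:36023527-36024027, between H2-T23 and the class I gene H2-T24, whose end is 2977 bp away and nearer. All 5 CON_SAL and all 6 MIA_SAL libraries read 0. MIA_LPS read 15.6, 24.8, 0, 0 and 38.3, and CON_LPS ran from 0 through a median of 16.0 to 29.9, with 6 of 7 libraries above 0. Peaks were thus seen in 9 of 12 LPS and 0 of 11 saline libraries (exact conditional test, adjusted p = 0.00471). The rank was 16.2 points higher after LPS (SE 3.93, limma adjusted p = 0.00388), and 14.6 and 17.3 points higher within libraries of under and over 20000 sorted cells. The peaks were weak, with a fold of 4.18 to 8.46, and with lists shortened further to the best 16974 peaks the difference was 0.0 (limma adjusted p = 1.0).

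B2m had 1 gained and 1 lost region downstream. The gained one, 8667 bp downstream at chr2:122161499-122161999, read 19.3, 13.0, 0, 0 and 4.19 in CON_SAL and 56.7, 24.9, 31.2, 37.4 and 58.2 in MIA_LPS. Its lowest, median and highest were 0, 37.1 and 67.0 in CON_LPS and 0, 0 and 25.6 in MIA_SAL. Every MIA_LPS library but the one at 24.9 lay above all saline libraries, and 2 CON_LPS libraries had no peak. The rank was 32.1 points higher after LPS (SE 7.29, limma adjusted p = 0.00224), with 14.3 points in libraries of under 20000 sorted cells and 52.3 in those of over 20000. Presence, 10 of 12 against 4 of 11, missed the threshold (exact conditional test, adjusted p = 0.125).

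This region holds an annotated start of Trim69, a gene of the tripartite motif family, at 122161556. The bases of that promoter inside the region are given because this is the sole region called for LPS over both offspring groups that the promoter table reaches.
Trim69 (chr2:122161499-122161555, plus strand): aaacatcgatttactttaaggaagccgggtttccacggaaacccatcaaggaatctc
None of the 6 motifs matched in these 57 bases. Trim69's other start in the table falls in the region 7746 bp downstream of B2m, which differed by −7.78 points (SE 6.81, limma adjusted p = 0.452).

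The lost region, 10852 bp downstream of B2m at chr2:122163684-122164184, also lies inside Trim69 and Patl2. It read 32.3, 54.5, 49.7, 37.2 and 36.9 in CON_SAL, and in MIA_SAL 0, 30.7 and 41.5 (lowest, median, highest). In CON_LPS 6 of 7 libraries had no peak and the other read 12.8, and MIA_LPS read 0, 18.7, 0, 34.5 and 1.27. In CON offspring the LPS and saline libraries did not overlap, and in MIA offspring they did. The rank fell by 28.4 points with LPS (SE 5.43, limma adjusted p = 0.000398), by 27.7 and 31.3 within the classes of sorted cells. Peaks were present in 4 of 12 LPS and 10 of 11 saline libraries (exact conditional test, adjusted p = 0.0481), a call that was lost when any 1 of 18 of the 23 libraries was left out (adjusted p of 0.0850 to 0.0961), and without identity numbers 01 to 03 (0.272).

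A region 5093 bp upstream of H2-K1, at chr17:34005462-34005962, fell in rank, and no protein-coding gene lay nearer. It read 26.7, 41.2, 37.8, 65.3 and 55.5 in CON_SAL and 24, 48.2 and 60.6 (lowest, median, highest) in MIA_SAL. After LPS it ran from 0 through 8.57 to 42.8 in CON_LPS and read 0, 4.17, 0, 3.71 and 0 in MIA_LPS. Every MIA_LPS library lay below every saline library, and CON_LPS overlapped CON_SAL. The rank fell by 36.3 points (SE 6.41, limma adjusted p = 0.000165), the smallest p among the 47 regions, and by 30.2 and 46.9 within the classes of sorted cells. Presence in the shortened lists, 6 of 12 against 11 of 11, missed the threshold (exact conditional test, adjusted p = 0.0577). Leaving out MIA_LPS replicate 2 or 4 brought presence under the threshold (adjusted p = 0.0287 and 0.0291 by the exact conditional test).

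The largest difference, 9283 bp upstream of Tapbp at chr17:33909945-33910445, lies inside Daxx, a gene for a chromatin and cell death regulator. It read 0 in all 5 CON_SAL libraries and in 5 of 6 MIA_SAL libraries, with 98.1 in the sixth. CON_LPS ran from 0 through 95.4 to 99.0, and MIA_LPS read 99.6, 14.2, 0, 99.9 and 99.7. The rank was 51.4 points higher after LPS (SE 16.1, limma adjusted p = 0.0237), 40.6 and 41.8 within the classes of sorted cells, and presence was 10 of 12 against 1 of 11 (exact conditional test, adjusted p = 0.00788). Of the 11 libraries with a peak here, though, only 2 had a summit inside the region. In CON_LPS replicates 4 and 6 and MIA_LPS replicate 2 the peak was a weak one, at 5.48, 0.854 and 14.2. Those libraries read 96.7, 99.2 and 97.6 at the Daxx start, 10101 bp upstream of Tapbp. In the rest of the 11 it is the peak of the Daxx start that reaches into the region. With the summit required inside the region the difference was 1.48 points (limma adjusted p = 0.530), and the Daxx start itself differed by 1.09 (SE 0.922, limma adjusted p = 0.432). The rank call was also lost without any 1 of MIA_LPS replicates 1, 4 and 5 (limma adjusted p of 0.0505 to 0.0518), and without identity numbers 01 to 03 (0.103).

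**Figure D2:**
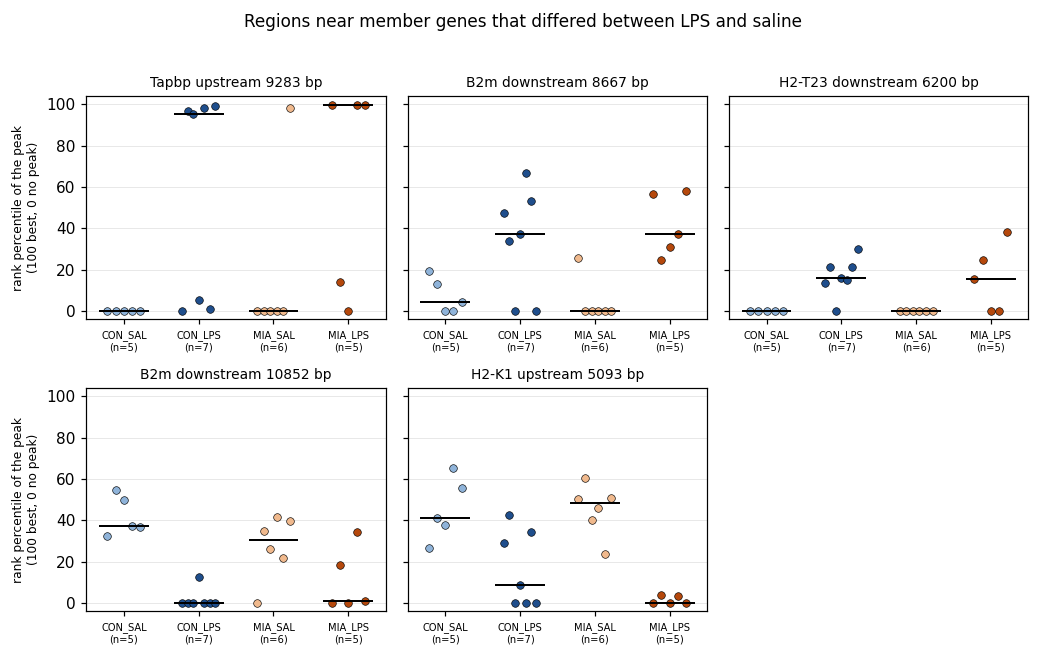
Rank percentile of the peak in each library (points) at the 5 member regions that differed between LPS and saline, by group. The vertical axis has 100 for the best peak and 0 for none in the shortened list. Lines are group medians. The 3 regions of the upper row are higher after LPS and the 2 of the lower row are lower. The Tapbp region is at 0 or at 95.4 or more in most libraries.

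**Figure D3:**
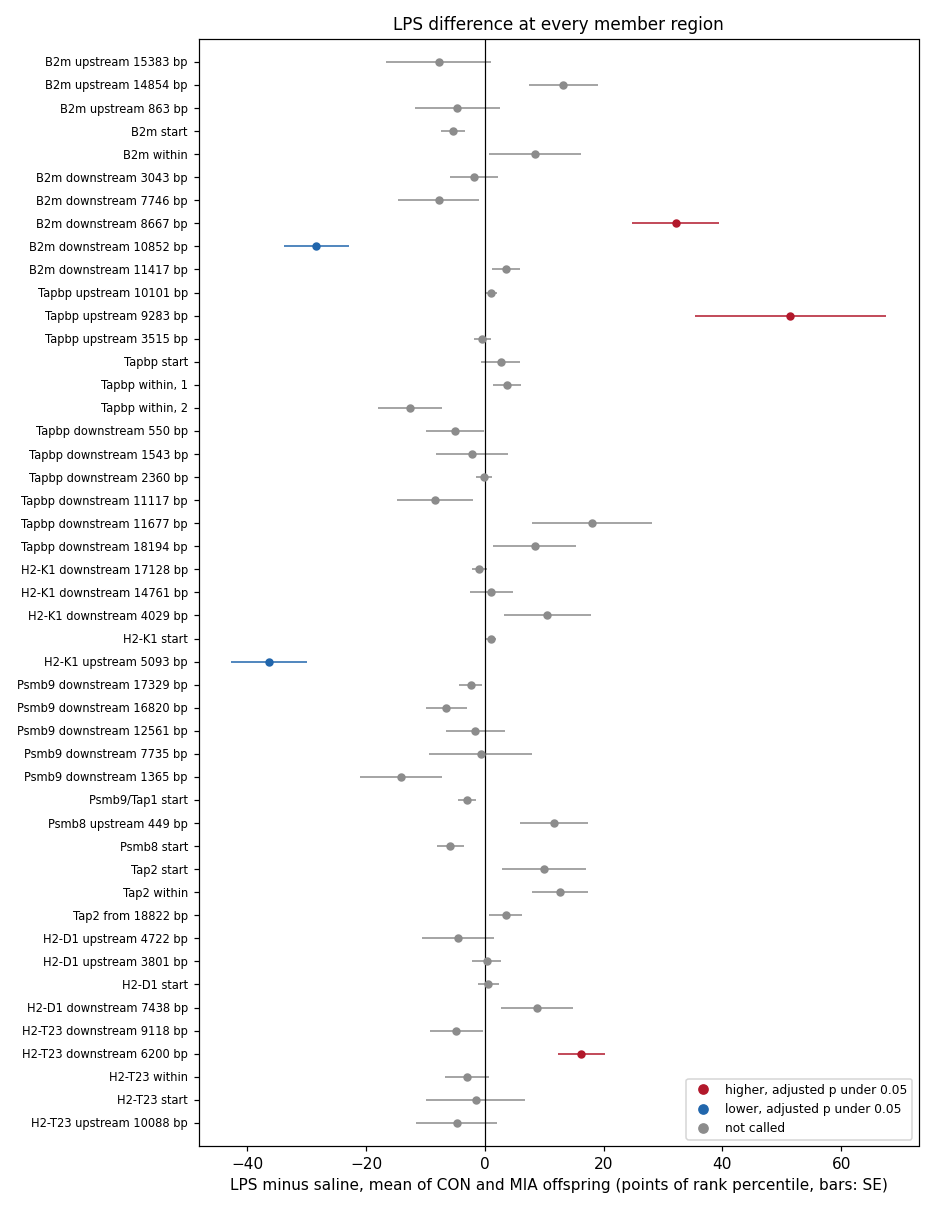
LPS minus saline, averaged over CON and MIA offspring, in points of rank percentile (horizontal axis, bars are SE) for all 47 member regions, named by the gene and the distance from it. The 5 coloured regions pass the threshold, and the 8 starts lie between −5.83 and 9.93.

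Taken by offspring group, LPS called 3 of 47 regions in CON (6.38%), all lower, against 10.0% of all regions (5.59% higher and 4.44% lower). These were the B2m start, the region 10852 bp downstream of B2m, which fell by 40.3 (SE 7.54, limma adjusted p = 0.000789), and that 5093 bp upstream of H2-K1, which fell by 28.9 (SE 8.91, limma adjusted p = 0.0384). The H2-K1 call was lost without any 1 of CON_SAL replicates 2, 4 and 5 or CON_LPS replicates 3, 4, 5 and 7 (limma adjusted p of 0.0550 to 0.124), and without identity numbers 01 to 03 (0.161). The count was 1 without CON_SAL replicate 5 and also without CON_LPS replicate 4. Without identity numbers 01 to 03 the CON calls were 2 higher and 1 lower, with 1 shared: the region 14854 bp upstream of B2m moved from 21.3 (limma adjusted p = 0.0997) to 30.9 (0.00557), and that 8667 bp downstream from 26.8 (0.0978) to 38.6 (0.0133). Averaged over the offspring groups, the upstream region moved from 13.2 (limma adjusted p = 0.114) to 15.7 (0.0253). In MIA it also called 3 of 47 (6.38%), 1 higher and 2 lower, against 10.0% of all regions (6.23% higher and 3.78% lower). The region 8667 bp downstream of B2m was higher by 37.4 (SE 10.5, limma adjusted p = 0.0217), a call lost without MIA_LPS replicate 1 or 5 (0.0666 and 0.0671), and that upstream of H2-K1 fell by 43.8 (SE 9.22, limma adjusted p = 0.00237). The third lies inside Tapbp, at chr17:33920660-33921160, and fell by 26.9 (SE 7.74, limma adjusted p = 0.0255). The MIA count was 1 without MIA_LPS replicate 1 and 6 without MIA_LPS replicate 3. With all deposited peaks the MIA calls were 2 higher and 0 lower, with 1 shared: the H2-K1 difference was −27.0 (limma adjusted p = 0.217) and the Tapbp difference −33.2 (0.101). Without identity numbers 01 to 03, the region 6200 bp downstream of H2-T23 passed in MIA too, at 19.7 (limma adjusted p = 0.0380) against 15.7 (0.0802) with them.

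At that Tapbp region most MIA_SAL libraries had a higher rank than the other groups. They ran from 0 through 32.6 to 48.3, with 5 of 6 above 0, while CON_SAL read 0, 26.2, 3.68, 0 and 0 and MIA_LPS 0, 0, 5.88, 0 and 8.0. CON_LPS ran from 0 through 0 to 34.5. MIA_SAL was 23.7 points above CON_SAL (SE 7.74, limma adjusted p = 0.771), which did not pass. The difference of the LPS responses there was −28.7 (SE 10.8, limma adjusted p = 0.972). Its MIA call was lost without any 1 of MIA_SAL replicates 4 and 5 and MIA_LPS replicates 1, 2 and 4 (limma adjusted p of 0.0529 to 0.0625). The call was also lost in 6 of 11 other settings. The difference was −3.62 by fold (limma adjusted p = 0.302) and −8.45 with −log10 q of at least 5 (0.23). Normal scores and no filter on the number of libraries gave limma adjusted p of 0.0813 and 0.0523.

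None of the 47 regions was called for prenatal history when all 23 libraries were used. After saline limma called 0 of them, as it did over the whole genome (0.0%), with 3 members and 5.23% of all regions at an unadjusted p under 0.05. After LPS it called 0 of them, against 0.0224% of all regions (11 regions), with 3 members and 5.63% of all regions at an unadjusted p under 0.05. For the difference of the LPS response it called 0 members and 0.0% of all regions, with 3 members and 4.51% of all at an unadjusted p under 0.05. The exact conditional test of presence between MIA and CON called 0 of 14 members tested and 0.0% of 15660 regions, with 0 members and 2.68% of all at an unadjusted p under 0.05.

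The shared start of Psmb9 and Tap1 was the sole member region with an unadjusted p under 0.05 in both prenatal comparisons. It read 96.8, 91.7, 87.1, 96.2 and 96.0 in CON_SAL and 90.2, 80.5, 83.4, 88.9 and 85.0 in MIA_LPS, with 84.5, 89.6 and 95.3 (lowest, median, highest) in CON_LPS and 84.1, 87.9 and 92.4 in MIA_SAL. The MIA groups lay lower but overlapped the CON groups of the same treatment. The difference was −5.38 after saline (SE 2.21, limma adjusted p = 0.873) and −4.60 after LPS (SE 2.14, limma adjusted p = 0.859). A region 14854 bp upstream of B2m had the smallest p after LPS among the members. CON_LPS ran from 0 through 35.3 to 51.4 and MIA_LPS read 0, 1.96, 23.6, 0 and 0, a difference of −23.7 (SE 8.09, limma adjusted p = 0.673). Without the 6 libraries of identity numbers 01 to 03 it was −39.9 (SE 6.36) and passed (limma adjusted p = 0.0346).

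Several members had their most open region away from the gene's start. Upstream of Tapbp the Daxx start had a median of 97.6 (92.8 to 99.9), and downstream of H2-K1, 17128 bp away and 11846 bp from Vps52, a region had a median of 94.5 (88.7 to 99.3), close to that of the H2-K1 start. The strongest region of H2-T23 was at the start of the class I gene H2-T22, 10088 bp upstream, with a median of 66.0, no peak in MIA_LPS replicate 3 and up to 79.7. For Tap2 it was 18822 bp away near H2-Ob, with 75.9 (58.2 to 85.4). None of them was called for LPS (limma adjusted p of 0.393 to 0.672). The limit of 20 kb took in this Tap2 region and a Tapbp region at 18.2 kb and left out, just beyond it, a region 20.3 kb from H2-D1 (chr17:35242521-35243021) at a median of 62.9, which rose by 18.9 points with LPS (limma adjusted p = 0.000421), and one 21.3 kb from B2m with a peak in 5 libraries.

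Other genes of the pathway were taken from a list of 46, with 225 regions by the same distance rule. With LPS 18 regions rose and 15 fell, 14.7% of them, against 20.6% of all regions, and the median difference was −0.28. By gene, 12 had a higher region, 12 a lower one, 7 of these both, and 29 neither. Peptide supply and loading had 3 higher and 2 lower of 54 regions (9.26%), other class I and class I-like genes 1 and 1 of 27 (7.41%), and class II genes 2 and 5 of 54 (13.0%). The transcription group had 12 higher and 7 lower of 90 (21.1%). H2-T22 had no region of its own because its regions belong to H2-T23.

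Irf2, an interferon regulatory factor that can repress or activate class I promoters, had the largest difference. A region inside it (chr8:46811204-46811704) had no peak in any of 11 saline libraries and a mean percentile of 69.9 ± 5.98 (SD, n = 7) in CON_LPS and 66.8 ± 7.13 (SD, n = 5) in MIA_LPS, a rise of 68.4 points (SE 4.11, limma adjusted p = 2.49e-11). Irf2 also had 3 regions that fell, by 8.69 to 14.9. A region inside Mr1, which presents vitamin B metabolites to MAIT cells, rose by 56.8 (SE 5.71, limma adjusted p = 6.16e-08). It went from 0 and 1.61 ± 3.93 in CON_SAL and MIA_SAL to 47.5 ± 18.8 and 67.8 ± 9.06 in CON_LPS and MIA_LPS. The other Mr1 regions differed by −15.6 to 2.2 and were not called. Erap1, the peptidase that trims class I peptides in the endoplasmic reticulum, rose by 15.5 (SE 2.05, limma adjusted p = 3.88e-06) in a region open in all 23 libraries. Irf8, a factor of the myeloid lineage, gained 3 regions, by 27.9 to 46.6, and lost 2, by 15.1 and 28.0.

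The remaining named genes moved in 1 or both directions. A region inside Irf7, which amplifies type I interferon, rose by 44.5 (SE 6.47, limma adjusted p = 1.43e-05). The other Irf7 regions differed by 5.44 and 4.67 and were not called. Nfkb1 and Rela, subunits of NF-kB, had regions higher by 26.9 (SE 4.86) and 30.3 (SE 7.47). Lnpep, a peptidase of cross-presentation, rose by 31.4 (SE 6.40) in a region inside the gene. Nfkb1 and Lnpep each also had a region that fell, by 18.4 (SE 6.21) and 13.2 (SE 3.76). Ctss, a class II pathway protease, rose by 33.4 (SE 4.48) in a region 14782 bp away and fell by 13.3 (SE 3.07) in one inside the gene. H2-DMa, which edits class II peptides, had a region with means of 26.6 and 43.3 in CON_SAL and MIA_SAL and of 22.3 and 7.75 in CON_LPS and MIA_LPS, a fall (SE 5.80, limma adjusted p = 0.0152). Another H2-DMa region, open in all libraries, rose by 3.38 (SE 1.09, limma adjusted p = 0.0289). Irf1, the interferon-induced activator of class I genes, fell by 4.58 (SE 1.43, limma adjusted p = 0.0235) at 105 bp from the gene and rose by 8.68 (SE 3.11, limma adjusted p = 0.0490) at 6948 bp.

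**Figure D4:**
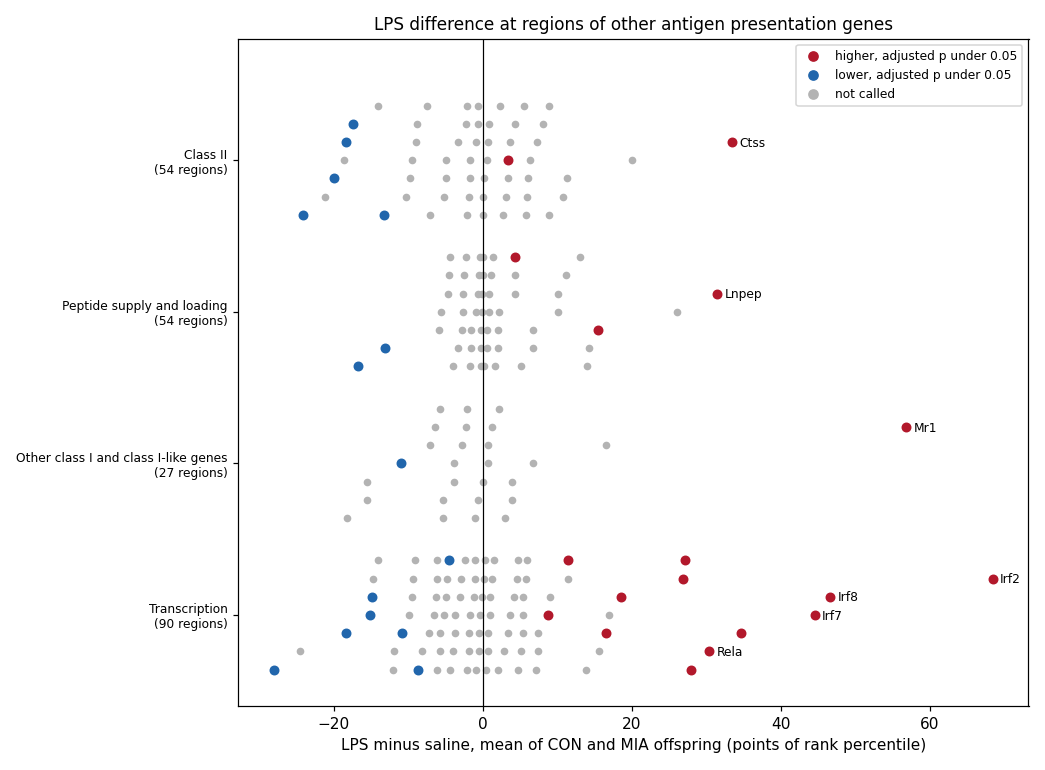
LPS minus saline, averaged over CON and MIA offspring, in points of rank percentile (horizontal axis) for the 225 regions of 46 other antigen presentation genes, 1 point a region, by group of genes (the vertical scatter has no meaning). Red and blue points pass the threshold, and regions of Irf2 and Mr1 are farthest to the right at 68.4 and 56.8.

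Across the 23 libraries, the mean percentile of the members' strongest regions varied from 75.2 in MIA_LPS replicate 3 to 88.7 in CON_SAL replicate 5, with medians of 83.9 for CON_SAL, 81.8 for CON_LPS, 84.1 for MIA_SAL and 83.6 for MIA_LPS. The gene-end regions that followed this mean most closely were at Rnf157 (Pearson r = 0.808), Mlx (0.792), Thra (0.770), AI429214 (0.761) and Ubtd2 (0.759). These r values describe 23 libraries that share the same ranking scheme, depth and quality differences.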

How the data were processed

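ATAC-seq peak lists of 23 microglia libraries were used, and none of the sources used here gives read counts, so depth is unknown. The submitters' processing notes name cutadapt, Bowtie2, Picard, SAMtools, MACS2 and DiffBind with the mouse build mm10 (GRCm38), without versions or settings. The deposited narrowPeak columns are the authors' peak score, fold enrichment at the summit, −log10 p and −log10 q, and the summit's place. The lowest deposited −log10 q was 1.301, from the values.

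Peaks were ordered by −log10 p within a library and the top 33949 kept, as many as the shortest list holds. Regions of 501 bp were set on summits, and 49124 of 74287 with a peak in at least 3 libraries were kept. A library had a peak where at least 50% of the region or peak overlapped, and its rank became a percentile. Ranks were fitted with limma 3.58.1 (R 4.3.3, moderated with a trend) over all 23 libraries by group. Presence was tested with an exact conditional test stratified by the other factor, two-sided, in regions where a p of 0.01 was attainable. Both were adjusted by Benjamini-Hochberg over all regions tested, with a threshold of 0.05. Both were also run on simulated data. The simulated ranks were normal values without the pile-up at 0 of the real ones. They therefore do not check the rank calls in regions gained or lost. Python 3.11.15, numpy 2.4.6, pandas 2.3.3, scipy 1.17.1, matplotlib 3.10.9 and Biopython 1.88 (local alignment) were used.

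The 9 genes, the 46 pathway genes and the markers were chosen with earlier results of these data known. Member regions were described where they were a gene's strongest or were called for LPS over both offspring groups, and of the pathway list the 12 genes with the smallest p were taken, of which 1 is not reported here. The starts, and regions called or near the threshold in 1 comparison, were added after their values were seen. Gene positions and promoters came from RefSeq on GRCm38.p6. Other list lengths, a stricter q, rank by fold, summit overlap, no filter, normal scores, a replicate block, sorted cells as a covariate, and libraries left out were tried. Identity number as a random block (limma duplicateCorrelation) was added after seeing the data.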

Additional observations from a re-analysis of the deposited data

Results flagged for a closer look

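Of 53 groups of libraries tested over the 14 regions described singly, 6 held a library far from the rest of its group. The rule, Dixon's gap ratio, flags about 1 in 20 by chance for normal values. That rate does not apply to ranks that pile up at 0. A group in which all libraries but 1 read 0 is flagged by construction. At the region 8667 bp downstream of B2m, MIA_SAL replicate 1 read 25.6 where the other MIA_SAL libraries had no peak. At the region 10852 bp downstream of B2m, CON_LPS replicate 4 read 12.8 where the other CON_LPS libraries had none. At the region 9283 bp upstream of Tapbp, MIA_SAL replicate 6 read 98.1 against 0 in the rest of its group. Inside Tapbp, CON_SAL replicate 2 read 26.2 against 0 to 3.68, and CON_LPS replicate 4 read 34.5 against 0 to 12.5. At the Tap2 start, MIA_SAL replicate 4 had no peak (0.0) where the others read 50.6 to 67.9.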

How the results depend on the processing

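Among the recomputed single-region results, 667 kept their direction and side of the threshold, 86 lost the call, 11 gained one and 15 changed sign, all at 2 starts that were not called. The H2-T23 start (−1.56) was 0.239 with all deposited peaks, 3.25 with the best 16974, 0.4 with −log10 q of at least 5, 0.291 with the replicate block and 2.2 without identity numbers 01 to 03, and −5.0 to 2.47 leaving out 1 library. The H2-D1 start (0.54) was −0.277 to 1.25 leaving out 1 library. With lists of the best 16974 peaks no member region was called by limma averaged over the offspring groups, in CON or in MIA (0.0 each, where 6.05%, 2.72% and 2.62% of all regions were), nor by presence (0.0). With −log10 q of at least 5 the LPS counts were 2.0 averaged, 1.0 in CON and 1.0 in MIA. With all deposited peaks CON had 1.0, and with rank by fold CON and MIA had 1.0 each. With the summit inside the region presence called 1.0. Without identity numbers 01 to 03, MIA against CON after LPS called 1.0. Leaving out 1 library at a time gave 4.0 to 7.0 averaged, 1.0 to 4.0 in CON, 1.0 to 6.0 in MIA and 2.0 to 4.0 by presence. Shorter lists hold fewer peaks by construction; for the other settings the cause was not tested. With the replicate number as a block the counts were 6.0 averaged, 3.0 in CON, 3.0 in MIA and 0.0 for each MIA comparison and the difference of responses. Libraries with the same number had correlations of deviations from −0.18 to 0.185 over 31 pairs (median 0.0214), and 7 of 23 correlated best with their own number, so the replicate numbers were not taken to pair the libraries. Libraries of different groups with the same identity number had correlations of 0.0286 to 0.156 over 6 pairs (median 0.12), against a median of −0.00487 for other pairs. Within a group, pairs with the same identity number had −0.103 to −0.0209 over 4 pairs (median −0.0773), against a median of −0.222 for other pairs. Pairs that share a number were thus more alike in both cases. The random block on that number moved no call. Ranks carry no read depth, so a region below the shortened list is not shown to be closed.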
